A study of Mus musculus with 12 samples.

Results

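The genes described are the ligands and receptors of the classical axon guidance families in mouse: semaphorins, plexins, neuropilins, ephrins, Eph receptors, Slits, Robos, netrins, and Dcc with the Unc5 receptors. They were chosen by gene symbol among protein-coding genes, and 72 of the 55901 genes of the expression table fell under the rule. A further 3 symbol matches, antisense transcripts of Plxna4, were not protein-coding and were left out. Of the 72, 62 had a mean of at least 0.5 FPKM (fragments scaled to transcript length and library size) over the 12 libraries and were tested, among 15016 genes tested in all. The lowest member inside that limit was Unc5b, with a mean of 0.616 FPKM, and the highest outside it was Efna1, with 0.319. The other members below it were Epha1, Epha2, Ntn5, Plxnb3, Robo4, Sema3b, Sema3d, Sema3g and Unc5cl. Unc5cl fell under the rule by its symbol and is not a classical netrin receptor.

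The RNA came from primary cortical neurons of C57BL/6J mice, taken within 24 h of birth, treated with arabinosylcytosine to limit dividing glia and kept for 7 days in culture. The Control group (4 libraries) was left uninjured. The Trauma group (4) was scratched with a needle and collected after 24 h, and the Tra_TGF group (4) was scratched and given 10 ng/ml TGF-β1 for 24 h. An uninjured group with TGF-β1 was not analysed here, so Tra_TGF against Trauma describes TGF-β1 in injured cultures. The labels do not say whether the libraries of a group came from separate cultures, so p-values measure the spread between these libraries, which may be technical.

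The libraries held 15052486 to 17381671 reads on genes. Tra_TGF libraries had 15052486 to 15880694 and Trauma libraries 16335960 to 17339554, without overlap. On the first 2 principal components, Control 1 lay at −12.1 and 59.0, where the other Control libraries lay at 25.3 to 30.0 and 3.81 to 8.70. Summed FPKM of 12 neuron markers ran from 1682 to 1732 in Control, 1495 to 1592 in Trauma and 1457 to 1497 in Tra_TGF. Tubb3 made up much of these sums, with means of 951, 841 and 738 FPKM. Calls among the 12 went both ways, with 2 higher and 3 lower in Trauma against Control and 2 and 2 in Tra_TGF against Trauma. In Tra_TGF against Control 4 were higher and 4 lower. Of all genes tested, 5.82%, 12.3% and 16.3% were called in these 3 comparisons. The 10 astrocyte markers summed to 216 to 245, 277 to 340 and 292 to 313. Of these 10, 8 were higher and 0 lower in Trauma than in Control, where 3.5% of all genes tested were higher. In Tra_TGF against Trauma 1 was higher and 3 were lower, and in Tra_TGF against Control 5 were higher and 0 lower. Microglia markers (10 genes) summed to 29.3 to 33.3, 41.8 to 49.5 and 37.0 to 42.0, and oligodendrocyte lineage markers (10) to 53.6 to 59.6, 69.3 to 77.0 and 66.3 to 73.3. Endothelial and mural markers (10) summed to 2.91 to 3.52, 5.89 to 7.20 and 8.23 to 10.2, and meningeal and fibroblast markers (10) to 1.67 to 2.43, 2.11 to 3.73 and 2.64 to 3.69. Acta2 made up much of the endothelial and mural sums, with means of 1.37, 4.42 and 6.94 FPKM. No marker was at 0 in all libraries. The cultures held glial transcripts beside the neuronal ones, and whether the shift in these sums took part in any member's change was not tested.

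Growing axons carry receptors that read cues from neighbouring cells and from the matrix. Semaphorins act through plexins, with neuropilins as co-receptors for most of the secreted class, and largely repel growth cones. Ephrins are bound to the membrane and signal both into the Eph-bearing cell and back into the ephrin-bearing cell. Slits repel axons through Robo receptors, and netrins attract through Dcc or repel through Unc5 receptors. In the postnatal cortex the same families also take part in dendrite and synapse formation and are known for their expression around brain injuries.

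The promoters of 4 members whose values recur are shown, the neighbours Efna3 and Efna4 because both were lower in Tra_TGF than in Trauma, Sema6b because its transcripts had the highest GC content of the members tested (63.5%), and Plxnb2 because it was higher in both injured groups. Each is the 250 bases before the gene's start in RefSeq on GRCm38.p6, read 5′ to 3′ on the gene's strand, with GC boxes (GGGCGG or its reverse complement CCGCCC) in capitals.
Efna3, chr3:89322940-89323189, minus strand: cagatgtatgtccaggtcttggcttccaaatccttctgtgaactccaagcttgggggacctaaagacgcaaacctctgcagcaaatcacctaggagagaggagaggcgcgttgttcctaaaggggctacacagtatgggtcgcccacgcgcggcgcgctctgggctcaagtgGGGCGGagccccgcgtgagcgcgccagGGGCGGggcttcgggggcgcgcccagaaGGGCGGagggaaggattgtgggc
Efna4, chr3:89338029-89338278, minus strand: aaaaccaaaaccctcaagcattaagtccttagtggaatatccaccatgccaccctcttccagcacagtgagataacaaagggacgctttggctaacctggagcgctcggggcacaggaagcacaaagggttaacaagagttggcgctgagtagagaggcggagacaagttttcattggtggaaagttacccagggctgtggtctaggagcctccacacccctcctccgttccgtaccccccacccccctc
Sema6b, chr17:56140344-56140593, minus strand: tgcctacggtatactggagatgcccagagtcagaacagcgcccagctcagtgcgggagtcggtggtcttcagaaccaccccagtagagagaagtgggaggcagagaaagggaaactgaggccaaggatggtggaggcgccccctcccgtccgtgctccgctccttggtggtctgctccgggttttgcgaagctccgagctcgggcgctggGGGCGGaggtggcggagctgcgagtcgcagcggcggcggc
Plxnb2, chr15:89180789-89181038, minus strand: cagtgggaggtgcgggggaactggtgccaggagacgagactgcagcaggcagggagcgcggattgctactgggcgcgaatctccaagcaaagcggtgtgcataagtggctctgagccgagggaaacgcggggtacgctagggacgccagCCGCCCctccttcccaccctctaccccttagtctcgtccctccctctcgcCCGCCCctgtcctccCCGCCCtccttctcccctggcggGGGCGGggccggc

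GC boxes numbered 3 before Efna3, 0 before Efna4, 1 before Sema6b and 4 before Plxnb2. The GC content of these windows was 63.6%, 54.4%, 66.0% and 69.2%, in the same order. A GC box on either strand was present in 40 of the 53 members with a RefSeq window (75.5%) and in 60.7% of the 9984 windows of all genes tested. The letters CAGACA or TGTCTG, a SMAD-type element, were in 10 of the 53 (18.9%, against 12.7% of all windows), and the AP-1 letters TGANTCA in 1 (1.89%, against 3.62%). None of the 4 windows shown held either of the latter. A match is a run of letters and no measured binding site.

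Members of every family were expressed in these cultures, and ligands and their receptors were present together. Levels are given as FPKM, which is per length and so allows genes to be compared. The tested semaphorins ran from Sema5a (mean 1.04 FPKM over the 12 libraries) to Sema7a (91.1), a GPI-anchored semaphorin that promotes axon growth through integrins. The highest secreted semaphorin was Sema3c, at 17.5 FPKM. Among plexins, the transmembrane semaphorin receptors, Plxnd1 was highest (76.1) and Plxnc1 lowest of those tested (5.40). Neuropilins were low beside them, with 3.46 FPKM for Nrp2 and 1.16 for Nrp1.

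**Figure D1:**
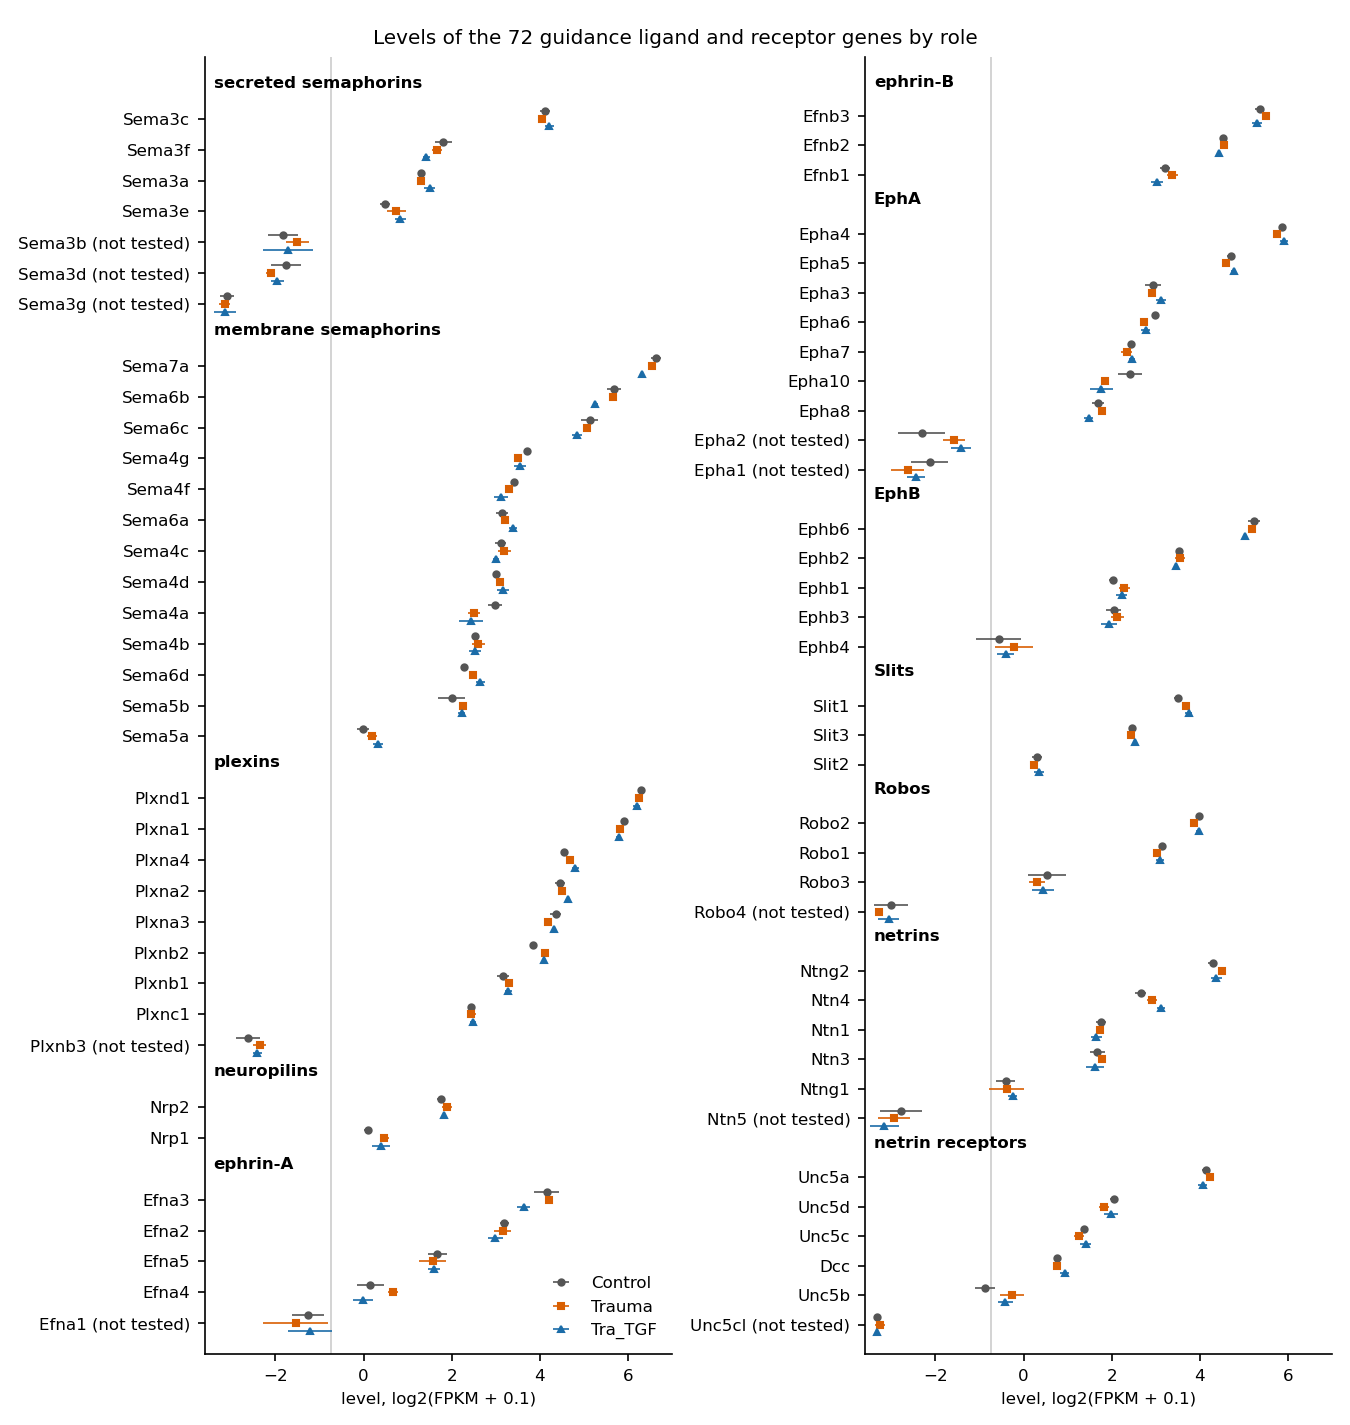
Level of each of the 72 members as log2(FPKM + 0.1), by role, with the mean (marker) and SD (bar) of 4 libraries for Control, Trauma and Tra_TGF. The vertical line marks 0.5 FPKM, and members whose mean over the 12 libraries was below it were not tested. Differences between genes span more of the axis than differences between groups.

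Of the ephrins, Efnb3 was highest (41.9 FPKM) and Efna3 (16.3) led the GPI-anchored ephrin-A ligands. Epha4, a receptor for ephrins of both classes, led the EphA receptors at 57.4 FPKM, and Ephb6, whose kinase domain is inactive, led the EphB receptors at 35.5. Slit1 (12.5) stood above Slit3 (5.46) and Slit2 (1.13), and Robo2 (15.4) above Robo1 (8.39) and Robo3 (1.27). Ntng2, a membrane-anchored netrin, had 20.9 FPKM and the secreted Ntn1 had 3.19. Unc5a (17.6) was the highest netrin receptor, above Unc5d (3.79), Unc5c (2.44), Dcc (1.66) and Unc5b (0.616). In the plot of levels by role the groups lie close together for most members, and over the 62 tested, log2 fold changes had a median of 0.014 for Trauma minus Control, −0.026 for Tra_TGF minus Trauma and −0.0078 for Tra_TGF minus Control. All genes tested had −0.0025, 0.0052 and 0.0031.

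Trauma against Control asks what the scratch changed after 24 h. Few guidance genes differed: 2 members were higher (Plxnb2 and Sema6d), 2 were lower (Epha10 and Epha6), and the other 58 tested did not pass an adjusted p of 0.05. The 4 called were 6.45% of the members tested, against 5.82% of all genes tested (3.5% higher, 2.32% lower). The 4 libraries of each group did not overlap for 12 of the 62 members tested (7 higher, 5 lower). Over all genes tested, 1922 of 15016 did not overlap (12.8%, with 6.87% higher and 5.93% lower). At an unadjusted p of at most 0.05 there were 19 of the 62 members, against 2919 of the 15016 genes (19.4%). Another scaling moved the split, to 1 higher and 3 lower with FPKM as deposited and to 1 higher and 2 lower with quantile normalization (all genes 4.9%, 3.06% higher and 1.84% lower). Without Control 1, which stood apart, 1 member was higher (Plxnb2) and 1 lower (Epha10). In bulk RNA, fewer cells of a type and less RNA per cell cannot be told apart, which holds for each value that follows.

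Plxnb2, a plexin that binds class 4 semaphorins and is also made by glia, had 14.5, 13.8, 14.6 and 14.1 FPKM in Control 1 to 4, and 16.9, 17.1, 17.5 and 17.6 in Trauma 1 to 4. Tra_TGF 1 to 4 had 17.2, 17.1, 16.7 and 16.7. All 8 injured libraries lay above all Control libraries. The log2 fold change was 0.27 (standard error 0.033, limma adjusted p = 0.000603) for Trauma minus Control and 0.24 (0.033, limma adjusted p = 0.000777) for Tra_TGF minus Control. Plxnb2 (ENSMUSG00000036606, chromosome 15 of GRCm38 from 89155549 to 89180788) passed in both under all 28 alternative settings, and on 1695 to 2413 reads per library.

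Sema6d (ENSMUSG00000027200, chromosome 2 from 124089969 to 124667770), a transmembrane semaphorin that binds Plxna1, had 4.60, 4.54, 4.99 and 4.80 FPKM in Control. Trauma libraries had 5.55, 5.60, 5.26 and 5.68, and Tra_TGF libraries 5.96, 6.26, 5.79 and 6.79. The 3 groups did not overlap with each other. Trauma was higher than Control by 0.22 (standard error 0.059, limma adjusted p = 0.04997), at the edge of the threshold, and the call was lost without any of 11 of the 12 libraries (adjusted p up to 0.136), the exception being Tra_TGF 4, and passed in 7 of the 28 alternatives. Tra_TGF was higher than Control by 0.38 (0.059, limma adjusted p = 0.00177), which passed in all 28 alternatives. Tra_TGF against Trauma missed the threshold (adjusted p = 0.0927).

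The EphA receptors Epha10 and Epha6 were lower after injury. Epha10 (ENSMUSG00000028876, chromosome 4 from 124880899 to 124917800), which lacks kinase activity, had 4.14, 5.06, 6.65 and 5.35 FPKM in Control, 3.59, 3.32, 3.36 and 3.67 in Trauma, and 2.87, 2.77, 3.91 and 3.80 in Tra_TGF. Every injured library was below every Control library, and the Control libraries were the most spread. The log2 fold change was −0.57 for Trauma (standard error 0.14, limma adjusted p = 0.0362) and −0.65 for Tra_TGF (0.14, limma adjusted p = 0.0106). The latter passed in all 28 alternatives. The former was lost without any 1 of Control 2, 3 or 4 or of the 4 Trauma libraries (adjusted p up to 0.0927), passed without Control 1, and passed in 19 of 28 alternatives.

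Epha6 (ENSMUSG00000055540, chromosome 16 from 59653483 to 60605531) had 7.52, 7.55, 7.79 and 8.20 FPKM in Control, 6.51, 6.53, 7.09 and 6.14 in Trauma, and 6.63, 7.21, 6.98 and 6.14 in Tra_TGF. The injured libraries again all lay below Control. Its log2 fold change was −0.24 in Trauma (standard error 0.061, limma adjusted p = 0.0416) and −0.20 in Tra_TGF (0.061, limma adjusted p = 0.0424). The first call was lost without any 1 of 9 libraries (adjusted p up to 0.126), holding without Trauma 3, Tra_TGF 2 and Tra_TGF 4. The second was lost without any 1 of 8 (up to 0.113), holding without Control 1, Trauma 3, Trauma 4 and Tra_TGF 2. They passed in 14 and 15 of 28 alternatives. The other 5 EphA receptors tested did not pass for Trauma against Control (adjusted p 0.23 for Epha5 and 0.648 for Epha8).

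Members whose Trauma and Control libraries did not overlap without passing the test included Sema4a (log2 fold change −0.47, limma adjusted p = 0.0533), Efna4 (adjusted p = 0.116), Ntng2 (0.0731), Ephb1 (0.0707), Sema4g (0.0779), Nrp1 (0.127), Plxna1 (0.184) and Unc5b (0.144). Unc5b, on 40 to 109 reads, had 0.412, 0.372, 0.584 and 0.442 FPKM in Control and 0.619, 0.995, 0.687 and 0.673 in Trauma. Nrp1, the co-receptor for Sema3a and for VEGF, had 0.972 ± 0.0598 FPKM in Control and 1.29 ± 0.0969 in Trauma (SD, n = 4). These were chosen for naming because their groups did not overlap.

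**Figure D2:**
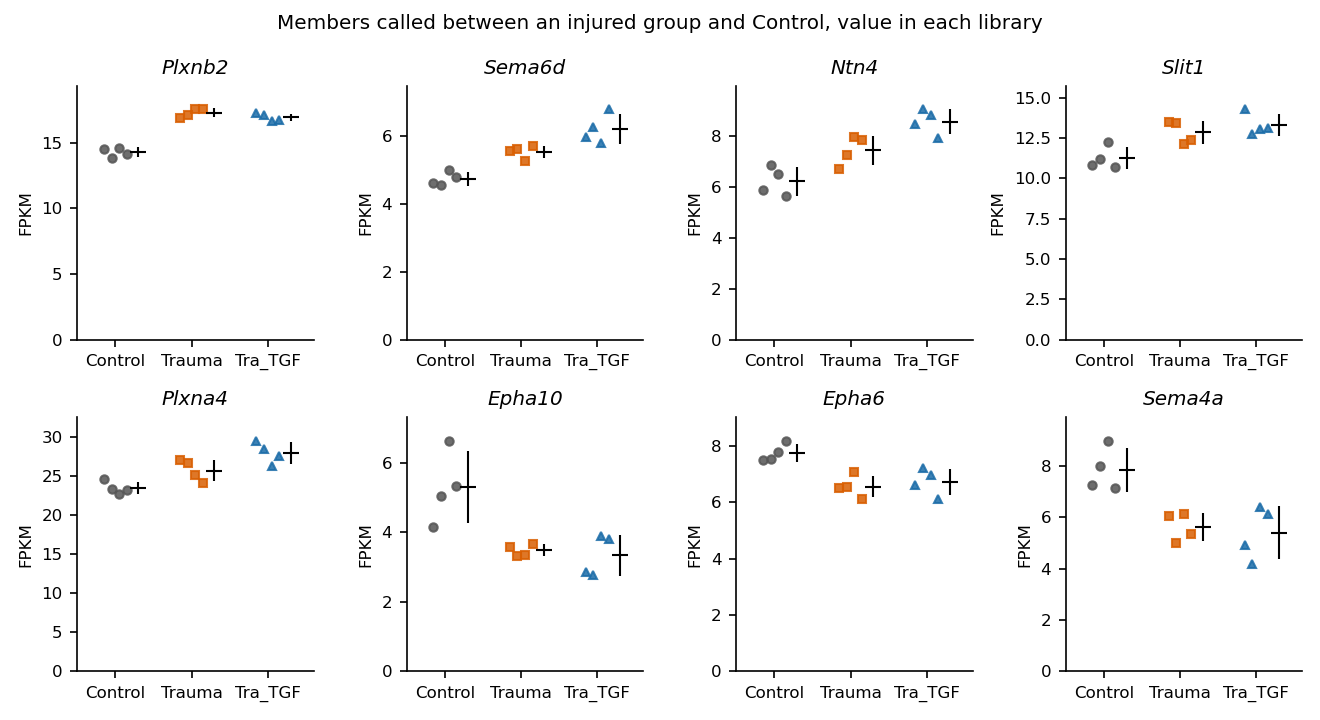
FPKM of 8 members in each library of Control, Trauma and Tra_TGF (points), with the mean and SD of 4 libraries (black). Plxnb2, Sema6d, Ntn4, Slit1 and Plxna4 lie higher and Epha10, Epha6 and Sema4a lower in Tra_TGF than in Control, with no overlap between those groups.

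Tra_TGF against Trauma asks what TGF-β1 changed in scratched cultures. Of the members, 6 were lower (the ephrins Efna4, Efna3 and Efnb1, the semaphorins Sema6b and Sema7a, and the receptor Epha8), 1 was higher (Epha5), and 55 did not pass. Of these 7, Efna3 alone was also called after a correction for the GC content of transcripts. The 7 called were 11.3% of the members tested, against 12.3% of all genes tested (4.64% higher, 7.63% lower). Of 32 ligands tested 5 were called, all lower, and of 30 receptors 1 was higher and 1 lower. The groups did not overlap for 18 of the 62 members tested (7 higher, 11 lower). Over all genes tested, 3353 of 15016 did not overlap (22.3%, with 10.6% higher and 11.8% lower). At an unadjusted p of at most 0.05 there were 25 of the 62 members, against 4420 of the 15016 genes (29.4%). With quantile normalization 4 of the 62 members were higher and 5 lower, against 13.7% of all genes (7.49% higher, 6.17% lower). Control 1 entered this comparison through the shared estimate of the spread, and without it 2 members were higher and 10 lower.

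Efna3 (ENSMUSG00000028039, chromosome 3 from 89313899 to 89322965), a ligand of EphA receptors, had 18.8, 18.3, 17.7 and 19.0 FPKM in Trauma, against 13.7, 12.1, 12.8 and 10.8 in Tra_TGF. In Control it had 14.0, 21.5, 20.0 and 16.4. All Tra_TGF libraries lay below all libraries of both other groups, and the Control libraries were widely spread. The log2 fold change was −0.58 against Trauma (standard error 0.12, limma adjusted p = 0.0126) and −0.52 against Control (0.12, limma adjusted p = 0.0112). Both calls held in all 28 alternatives, at adjusted p of at most 0.0418 and 0.0413. Trauma and Control did not differ detectably (adjusted p = 0.846). Reads ran from 422 to 900 per library.

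Efna4 (ENSMUSG00000028040, chromosome 3 from 89333390 to 89338028) lies on the same strand, 10425 bases upstream of Efna3. It was weakly expressed, with 1.51, 1.64, 1.34 and 1.51 FPKM in Trauma and 0.697, 0.962, 1.04 and 0.898 in Tra_TGF, on 17 to 46 reads per library over the 12. Control libraries had 1.13, 1.09, 0.710 and 1.21, between the injured groups and overlapping Tra_TGF. Efna4 changed from Trauma to Tra_TGF by −0.69 (standard error 0.17, limma adjusted p = 0.0266). The call was lost without any 1 of Trauma 1, 2 or 4 or Tra_TGF 1, 2 or 4 (adjusted p up to 0.0752), and passed in 16 of 28 alternatives. A long noncoding RNA on the other strand, 4731419I09Rik, overlaps Efna4 with up to 17 reads in a library. Efna1, the third ephrin of this stretch of chromosome 3, had 0.280 ± 0.200 FPKM in Trauma and 0.349 ± 0.142 in Tra_TGF (SD, n = 4) and was not tested. Adam15, the gene upstream of Efna4, had 11.2 ± 0.410 and 9.79 ± 0.708 FPKM (limma adjusted p = 0.0858).

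Efnb1 (ENSMUSG00000031217, chromosome X from 99136130 to 99148991), a transmembrane ligand of EphB receptors, had 11.4, 10.6, 9.86 and 9.43 FPKM in Trauma and 9.18, 7.74, 8.24 and 7.25 in Tra_TGF. The lowest Trauma and highest Tra_TGF libraries were close, and the Control values of 8.50, 10.3, 9.26 and 8.71 overlapped both. Efnb1 changed by −0.35 (standard error 0.085, limma adjusted p = 0.0238). It was not called without any 1 of Trauma 1, Trauma 2, Tra_TGF 2 or Tra_TGF 4 (adjusted p up to 0.0696), and passed in 21 of 28 alternatives. Efnb3 had 45.2 ± 2.58 FPKM in Trauma and 39.4 ± 2.89 in Tra_TGF (limma adjusted p = 0.0661), and Efnb2 23.2 ± 0.468 and 21.5 ± 0.531 (adjusted p = 0.113). For all 3 ephrin-B ligands the Tra_TGF libraries lay below the Trauma libraries without overlap, as they did for 11.8% of all genes tested. After a correction for GC content, Efnb3 stood at −0.06 (limma adjusted p = 0.494) and Efnb2 at −0.09 (0.201).

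Sema6b (ENSMUSG00000001227, chromosome 17 from 56123085 to 56140343), a transmembrane semaphorin that binds Plxna4, had 52.5, 53.4, 46.9 and 48.8 FPKM in Trauma, 39.3, 37.3, 39.4 and 36.4 in Tra_TGF, and 45.7, 57.2, 56.2 and 47.9 in Control. The Tra_TGF libraries were a tight group below all others. The change was −0.40 against Trauma (standard error 0.072, limma adjusted p = 0.00882) and −0.44 against Control (0.072, limma adjusted p = 0.00264). The call against Control held in all 28 alternatives and that against Trauma in 27. The latter was lost after the GC correction (−0.13, limma adjusted p = 0.0714). Against Control the corrected change was smaller, at −0.16 (limma adjusted p = 0.0206).

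Sema7a (ENSMUSG00000038264, chromosome 9 from 57940112 to 57962865) had 98.5, 96.2, 91.4 and 86.5 FPKM in Trauma and 83.5, 78.2, 81.0 and 77.4 in Tra_TGF. Control libraries had 93.6, 109, 103 and 94.3. The Tra_TGF libraries again lay below all others. It changed by −0.22 against Trauma (standard error 0.056, limma adjusted p = 0.0279) and by −0.32 against Control (0.056, limma adjusted p = 0.00358). The first call was lost without any 1 of Trauma 1, Trauma 2, Tra_TGF 2 or Tra_TGF 4 (adjusted p up to 0.0786) and with quantile normalization (−0.11), passing in 17 of 28, and the second held in all 28 alternatives.

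The EphA receptors Epha8 and Epha5 moved in opposite directions. Epha8 (ENSMUSG00000028661, chromosome 4 from 136929419 to 136956816) had 3.21, 3.34, 3.35 and 3.37 FPKM in Trauma and 2.57, 2.64, 2.57 and 3.01 in Tra_TGF, with 2.81, 3.38, 3.41 and 2.96 in Control. Its change was −0.29 (standard error 0.080, limma adjusted p = 0.0354), lost without any 1 of the 4 Trauma libraries or Tra_TGF 1, 2 or 3 (adjusted p up to 0.0895), and passed in 16 of 28 alternatives. Epha5 (ENSMUSG00000029245, chromosome 5 from 84054761 to 84417382) had 25.4, 23.9, 24.0 and 23.2 FPKM in Trauma and 27.4, 28.0, 25.9 and 27.2 in Tra_TGF. In Control it had 28.7, 25.3, 24.8 and 25.7, which overlapped both. Epha5 rose by 0.17 (standard error 0.049, limma adjusted p = 0.0444), a call lost without any 1 of 8 libraries (adjusted p up to 0.12) and kept without Control 1, Control 3, Trauma 1 and Tra_TGF 3. It passed in 14 of 28 alternatives. A processed pseudogene, Hmgn2-ps1, overlaps Epha5 on the other strand with up to 56 reads.

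**Figure D3:**
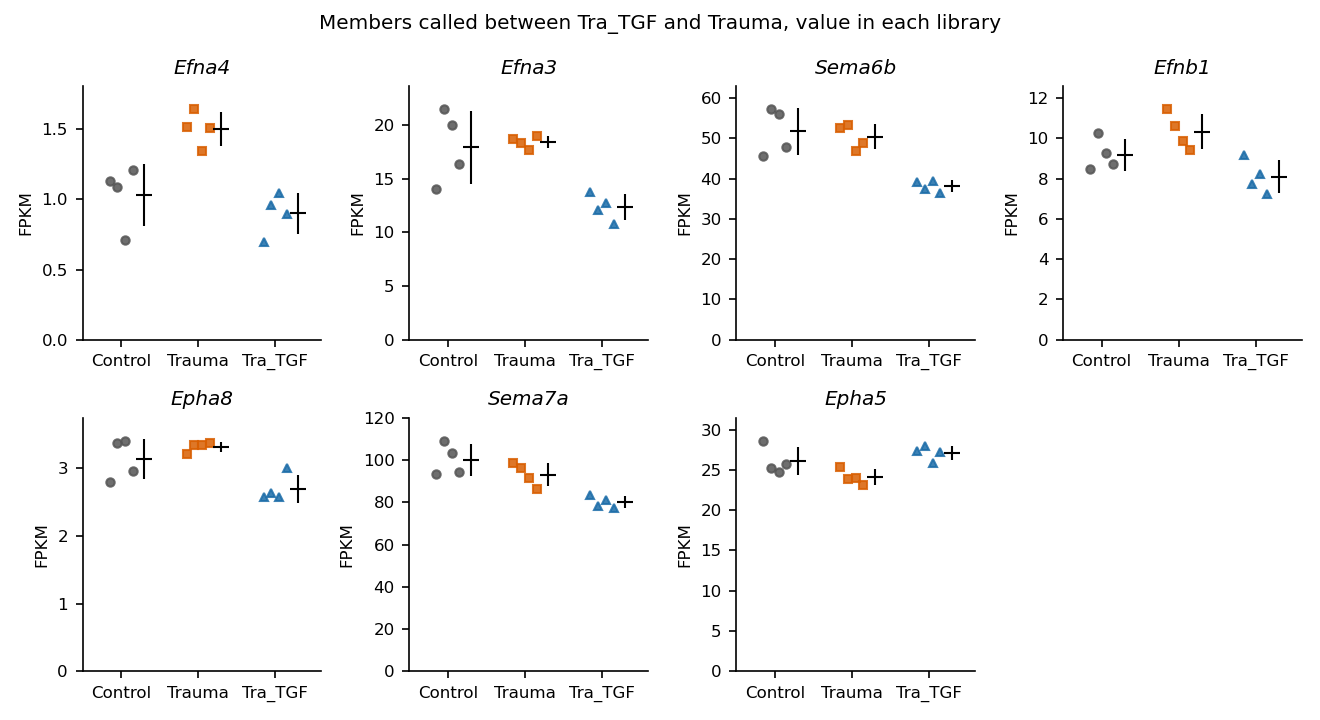
FPKM of the 7 members called between Tra_TGF and Trauma, in each library of the 3 groups (points), with the mean and SD of 4 libraries (black). Tra_TGF lies below Trauma without overlap for Efna4, Efna3, Sema6b, Efnb1, Epha8 and Sema7a and above it for Epha5, and Control overlaps Trauma for all but Efna4.

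The members' changes between Tra_TGF and Trauma were related to both the base composition and the length of their transcripts. The members tested were GC-rich and long, with a median GC content of 56.3% (40.1% to 63.5%) against 49.6% for all genes tested, and a median length of 7110 against 3865 bases. Across the 62 members, the log2 fold change correlated with GC content at a Spearman coefficient of −0.715 and with length at 0.709. Over the 14699 genes tested whose GC content was known, the coefficient was −0.465 and 0.228. The points share the same libraries, and genes are not independent replicates. Of the 41 members above the median GC content of all genes, 6 were lower and 0 higher. Of the 21 at or below it, 1 was higher and 0 lower. Over all genes tested 7.63% were lower and 4.64% higher. The shares of all genes above and below the median GC content are not given here, so these counts cannot be set against them.

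After a loess correction for GC content within each library, 3 of the 62 members tested were called between Tra_TGF and Trauma. Of these, 2 were higher and 1 lower, against 6.42% of all genes called (2.33% higher, 4.09% lower). Efna3 was the 1 called both ways, at −0.46 on the log2 scale after correction (standard error 0.096, limma adjusted p = 0.0182). Efna4 stood at −0.56 (adjusted p = 0.0954), Efnb1 at −0.20 (0.149), Sema6b at −0.13 (0.0714), Sema7a at −0.07 (0.385), Epha8 at −0.07 (0.631) and Epha5 at 0.03 (0.72). The 2 called higher were Slit1 (0.22, standard error 0.050, limma adjusted p = 0.0275) and Slit3 (0.21, 0.053, adjusted p = 0.0376), which without the correction had adjusted p of 0.607 and 0.333. After the correction the coefficient with GC content was −0.043 over the members. With a correction for gene length in its place, 4 members were called, all lower. Epha5 then stood at 0.04 (limma adjusted p = 0.537), Sema7a at −0.17 (0.0549) and Efna4 at −0.58 (0.0676), while Efna3 (−0.50, 0.0196), Sema6b (−0.37, 0.0120), Efnb1 (−0.31, 0.0379) and Epha8 (−0.28, 0.0488) passed. Whether the dependence on GC content or length arose in the cells or in making the libraries was not tested.

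**Figure D4:**
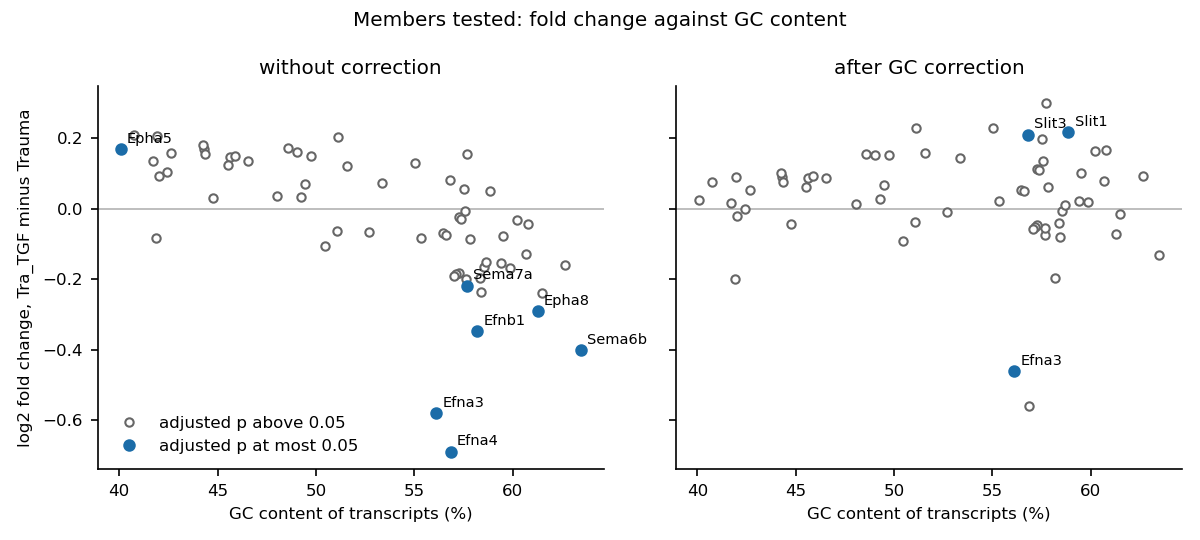
Log2 fold change of Tra_TGF minus Trauma for the 62 members tested against the GC content of their transcripts (%), without correction (left) and after loess correction of each library for GC content (right). Filled points have an adjusted p of at most 0.05. The downward slope on the left, coefficient −0.715, is absent on the right, coefficient −0.043, where Efna3 remains low.

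Tra_TGF against Control sets injury and TGF-β1 together beside uninjured cultures. It shares its libraries with both comparisons above, so its calls are no independent repeat of theirs. It had the most calls: 7 members were higher (Ntn4, Sema6d, Sema6a, Plxna4, Plxnb2, Slit1 and Plxna2), 10 were lower (Epha10, Sema4a, Efna3, Sema6b, Sema3f, Sema7a, Sema6c, Sema4f, Ephb6 and Epha6) and 45 did not pass. The 17 called were 27.4% of the members tested, against 16.3% of all genes tested (6.85% higher, 9.46% lower). Membrane semaphorins held 2 higher and 5 lower of 13 tested, secreted semaphorins 1 lower of 4, and plexins 3 higher and none lower of 8. The groups did not overlap for 18 of the 62 members tested (9 higher, 9 lower). Over all genes tested, 2706 of 15016 did not overlap (18%, with 8.64% higher and 9.38% lower). At an unadjusted p of at most 0.05 there were 28 of the 62 members, against 4678 of the 15016 genes (31.2%). With quantile normalization 7 of the 62 members were higher and 9 lower, against 13.7% of all genes (7.55% higher, 6.11% lower). Without Control 1, 8 members were higher and 12 lower.

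The netrin Ntn4 (ENSMUSG00000020019, chromosome 10 from 93640681 to 93747207), a secreted protein of basement membranes, had the largest rise. Its libraries had 5.88, 6.87, 6.51 and 5.66 FPKM in Control, 6.73, 7.28, 7.97 and 7.84 in Trauma, and 8.49, 9.08, 8.84 and 7.94 in Tra_TGF. All Tra_TGF libraries lay above all Control libraries, and Trauma lay between and overlapped both. The log2 fold change was 0.46 (standard error 0.075, limma adjusted p = 0.00238) and held in all 28 alternatives. Reads ran from 329 to 535 per library. Against Control, Trauma alone had 0.26 (0.075, limma adjusted p = 0.0698).

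Slit1 (ENSMUSG00000025020, chromosome 19 from 41600257 to 41743665), a secreted repellent read by Robo receptors, had 10.8, 11.2, 12.2 and 10.7 FPKM in Control and 14.3, 12.8, 13.1 and 13.1 in Tra_TGF. Trauma libraries had 13.5, 13.4, 12.1 and 12.4, of which 1 overlapped Control. Slit1 rose by 0.24 in Tra_TGF (standard error 0.057, limma adjusted p = 0.0147), a call that held in all 28 alternatives, and by 0.39 after the GC correction (adjusted p = 0.000495). For Trauma against Control the value was 0.19 (0.057, limma adjusted p = 0.0753). Slit2 and Slit3 were not called against Control, nor was any of the 3 Robo receptors tested in any comparison of the uncorrected fit (adjusted p 0.165 to 0.913).

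Of the 4 plexin-A receptors, Plxna4 and Plxna2 were called, both higher. Plxna4 (ENSMUSG00000029765, chromosome 6 from 32144268 to 32588192), which reads both secreted and class 6 semaphorins, had 24.6, 23.4, 22.7 and 23.3 FPKM in Control and 29.5, 28.5, 26.3 and 27.5 in Tra_TGF. Trauma libraries had 27.0, 26.6, 25.05 and 24.1 and overlapped both. It rose by 0.25 in Tra_TGF (standard error 0.048, limma adjusted p = 0.00561), held in all 28 alternatives, and had 0.13 in Trauma (0.048, limma adjusted p = 0.157). Plxna2 (21.9 ± 1.74 FPKM in Control and 25.02 ± 0.674 in Tra_TGF, SD, n = 4) rose by 0.20 (0.055, limma adjusted p = 0.0306), with overlap between Control 1 at 24.4 and Tra_TGF 3 at 24.2. That call was lost without any 1 of Control 2, 3 or 4 or Tra_TGF 1, 2 or 4 (adjusted p up to 0.0887) and with a correction for gene length (0.09, adjusted p = 0.197), and passed in 17 of 28 alternatives. Plxna1 (60.5 ± 0.854 and 55.2 ± 2.45 FPKM) did not pass (limma adjusted p = 0.0574), nor did Plxna3, Plxnb1, Plxnc1 or Plxnd1.

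Sema6a, a ligand of Plxna2 and Plxna4, had 8.40, 8.15, 8.42 and 10.0 FPKM in Control and 9.89, 11.2, 10.0 and 10.6 in Tra_TGF, and rose by 0.25 (standard error 0.067, limma adjusted p = 0.0252). The groups overlapped through Control 4. The call was lost without any 1 of Control 2, Control 3, Tra_TGF 2 or Tra_TGF 4 (adjusted p up to 0.0764) and with the length correction (0.20, adjusted p = 0.0539), and passed in 19 of 28 alternatives. Sema6c had 29.7, 38.1, 40.1 and 33.8 FPKM in Control and 30.2, 25.8, 30.9 and 27.8 in Tra_TGF, overlapping through Control 1, and changed by −0.30 on the log2 scale (0.084, limma adjusted p = 0.0327). That call was lost without any 1 of Control 2, Control 3, Tra_TGF 2 or Tra_TGF 4 (adjusted p up to 0.0957), with quantile normalization (−0.22) and after the GC correction (−0.08, adjusted p = 0.28), and passed in 18 of 28 alternatives. Of the 4 class 6 semaphorins, Sema6a and Sema6d (GC content 48.6% and 49.0%) were higher than in Control, and Sema6b and Sema6c (63.5% and 61.5%) lower. Sema6a and Sema6d were also longer (8778 and 10559 bases) than Sema6b and Sema6c (3968 and 5935).

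Sema4a (ENSMUSG00000028064, chromosome 3 from 88435959 to 88461182), a membrane semaphorin that binds plexin-B and plexin-D receptors, had 7.27, 7.99, 8.99 and 7.14 FPKM in Control, 6.03, 4.99, 6.12 and 5.34 in Trauma, and 4.90, 4.18, 6.42 and 6.12 in Tra_TGF. All injured libraries were below all Control libraries. Sema4a changed in Tra_TGF by −0.54 (standard error 0.13, limma adjusted p = 0.0152), which held in all 28 alternatives, at an adjusted p of at most 0.0499. Sema4f (10.6 ± 0.476 and 8.67 ± 0.988 FPKM, SD, n = 4) changed by −0.29 on the log2 scale (0.075, limma adjusted p = 0.0209). This was lost without any 1 of Control 2, Control 4, Tra_TGF 1, Tra_TGF 2 or Tra_TGF 4 (adjusted p up to 0.0614) and after the GC correction (−0.18, adjusted p = 0.146), and passed in 21 of 28 alternatives.

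Among the secreted semaphorins, Sema3f (ENSMUSG00000034684, chromosome 9 from 107681500 to 107710475), which repels axons through Nrp2, was the only 1 of 4 called in any comparison. It had 3.46, 4.11, 3.09 and 3.05 FPKM in Control, 3.20, 2.89, 3.35 and 2.89 in Trauma and 2.78, 2.65, 2.50 and 2.46 in Tra_TGF. The Tra_TGF libraries lay below all others, and the change from Control was −0.38 (standard error 0.097, limma adjusted p = 0.0218). It was not called without Control 2 or without Tra_TGF 4 (adjusted p up to 0.0588), nor after the GC correction (−0.24, adjusted p = 0.162), and passed in 23 of 28 alternatives. Sema3c, the highest of the class, had 17.3 ± 1.26, 16.6 ± 0.206 and 18.5 ± 1.35 FPKM in the 3 groups (SD, n = 4), and Nrp2 had 3.29 ± 0.235, 3.63 ± 0.294 and 3.46 ± 0.125.

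Ephb6 (ENSMUSG00000029869, chromosome 6 from 41605482 to 41620509) was the only EphB receptor called, with 32.8, 40.2, 40.0 and 37.8 FPKM in Control and 31.4, 32.7, 33.4 and 32.5 in Tra_TGF. Control 1 overlapped the Tra_TGF libraries. Ephb6 changed by −0.21 (standard error 0.059, limma adjusted p = 0.0313). This call was lost without any 1 of Control 2, 3 or 4 or Tra_TGF 1, 2 or 4 (adjusted p up to 0.0917), with quantile normalization (−0.12) and after the GC correction (−0.04, adjusted p = 0.557), and passed in 15 of 28 alternatives. The highest member of the EphA receptors, Epha4, had 58.1 ± 2.95, 54.2 ± 2.27 and 60.1 ± 3.61 FPKM in Control, Trauma and Tra_TGF (SD, n = 4). It was not called in any comparison of the uncorrected fit. In Tra_TGF against Trauma it was higher in 3 of 28 alternatives. These were quantile normalization (limma adjusted p = 0.0176), voom (0.0322) and the replicate block (0.0467).

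After the GC correction, 12 of the 62 members tested were higher and 6 lower in Tra_TGF than in Control, against 12.7% of all genes (5.92% higher, 6.78% lower). Of these 18, 13 were also called without it. The 5 others were Sema5b (corrected log2 fold change 0.42, limma adjusted p = 0.0214), Ntng2 (0.29, 0.00548), Plxnb1 (0.24, 0.0382), Sema4d (0.20, 0.0443) and Unc5a (0.18, 0.0281), all higher. The correction turned the sign of Unc5a, which had −0.07 without it (limma adjusted p = 0.404). For Trauma against Control the correction gave 3 higher and 4 lower members, against 7.69% of all genes (4.05% higher, 3.65% lower). They were the 4 called without it together with Ntng2 (0.21, limma adjusted p = 0.0372), Sema4a (−0.50, 0.0232) and Sema4g (−0.24, 0.0248). Without a correction, the Spearman coefficient with GC content over the 62 members was 0.152 for Trauma minus Control and −0.451 for Tra_TGF minus Control, with the same limits as above. With length it was −0.143 and 0.514. Over all genes tested with known GC content, the coefficients were 0.088 and −0.359 with GC content and −0.094 and 0.157 with length.

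**Figure D5:**
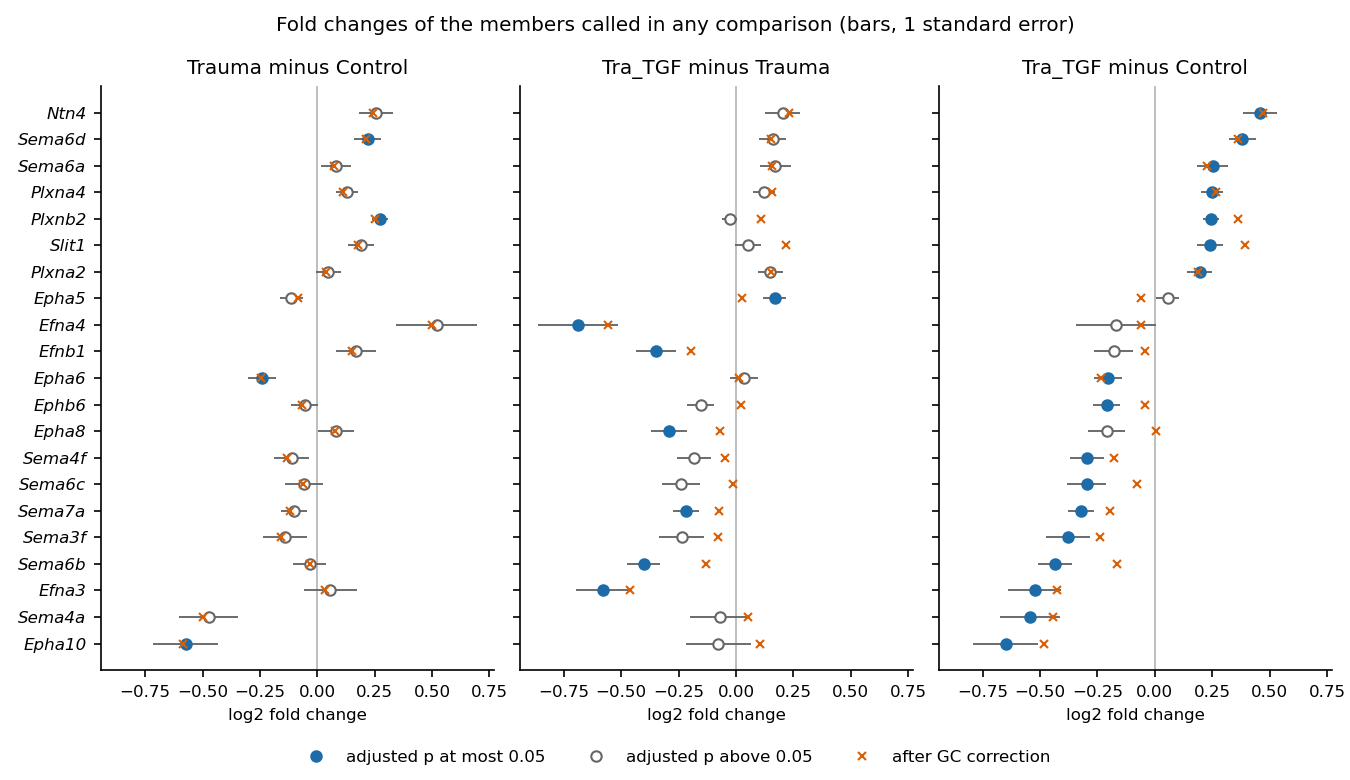
Log2 fold change of the 21 members called in any comparison (circles, filled where the adjusted p is at most 0.05; bars, 1 standard error) and the value after GC correction (crosses), ordered by Tra_TGF minus Control. Crosses lie near the circles for Trauma minus Control and move toward or past 0 for many of the lower members in the comparisons with Tra_TGF.

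Some families held no call in the fit without corrections. Neither neuropilin (adjusted p 0.127 to 0.722 over the comparisons), none of the 5 netrin receptors tested (0.0842 to 0.988) and none of the 3 Robo receptors tested passed. Under alternatives, Unc5a was called higher in Tra_TGF against Control after the GC correction, as given above. It was called lower in Tra_TGF against Trauma with 1 library left out (limma adjusted p = 0.0472). Nrp1 (limma adjusted p = 0.0391) and Unc5b (0.0403) were called in Trauma against Control with voom on the recovered reads. Unc5a, the highest netrin receptor, had 17.5 ± 1.04, 18.6 ± 0.572 and 16.6 ± 1.18 FPKM in Control, Trauma and Tra_TGF (SD, n = 4), Robo2 had 15.8 ± 0.848, 14.6 ± 0.510 and 15.7 ± 0.613, and Plxnd1 had 78.8 ± 1.58, 75.8 ± 2.90 and 73.6 ± 4.15. A p above the threshold does not show that these levels were equal. Reads from annotated genes that overlap a member could not be told from its own where the counting did not use strand, which is not stated in the sources used here. Of the 21 called members 11 overlap such a gene, with at most 56 reads in a library (Hmgn2-ps1, in Epha5) and otherwise at most 34. Epha5 itself had 6580 to 7439 reads per library. Efna4 had only 17 to 46, beside up to 17 for the overlapping 4731419I09Rik.

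Genes acting downstream of these receptors were read from the same fit. Of 75 intracellular effectors (collapsin response mediators, small GTPases and their regulators, actin-binding proteins and kinases), 72 were tested. In Trauma against Control 3 were higher and 4 lower, against 3.5% and 2.32% of all genes tested (5.82% together). Myl9, a myosin regulatory light chain of contractile cells, had 1.13 ± 0.159 FPKM in Control and 3.77 ± 0.920 in Trauma (SD, n = 4). It rose by 1.63 on the log2 scale (limma adjusted p = 0.000222). The 10 endothelial and mural markers summed to 2.91 to 3.52 and 5.89 to 7.20 FPKM, of which Acta2 had means of 1.37 and 4.42. Only 2 of the 10 were tested, and 1 was called higher. Whether these took part in the rise of Myl9 was not tested. Mical2, an actin-oxidizing enzyme, rose from 8.66 ± 0.541 to 12.4 ± 0.420 (0.52, adjusted p = 0.00042). Crmp1, which relays semaphorin signals, fell from 317 ± 9.61 to 270.5 ± 8.93 (−0.23, adjusted p = 0.00192), and Rnd2 from 19.9 ± 0.477 to 17.0 ± 0.598 (−0.23, adjusted p = 0.00704). These 4 calls held in all 28 alternatives.

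Of the 72 effectors tested, 6 were higher and 6 lower in Tra_TGF than in Trauma, against 4.64% and 7.63% of all genes tested (12.3% together). Rock2, a kinase that regulates actomyosin contraction, rose from 7.43 ± 0.596 to 9.33 ± 0.30002 FPKM (SD, n = 4; log2 fold change 0.33, limma adjusted p = 0.0179), except without Trauma 2 or Tra_TGF 4 (adjusted p up to 0.0537) and after the GC correction (0.20, adjusted p = 0.0807). Pak1, a kinase downstream of Rac, rose from 53.8 ± 2.02 to 64.1 ± 2.62 (0.25, adjusted p = 0.0125). Cfl1, the actin-severing protein cofilin, fell from 281 ± 7.93 to 232 ± 8.86 (−0.28, adjusted p = 0.00796). The actin regulator Vasp fell from 9.20 ± 1.58 to 6.07 ± 0.391 (−0.58, adjusted p = 0.0253), a call lost without any 1 of Trauma 1, 3 or 4 or Tra_TGF 2 or 4 (up to 0.0715) and after the GC correction (−0.43, adjusted p = 0.0632). Against Control, 9 of the 72 effectors were higher and 11 lower in Tra_TGF, against 6.85% and 9.46% of all genes tested (16.3% together). The highest were again Myl9 (1.56) and Mical2 (0.55), and the lowest Cdk5 (−0.36, limma adjusted p = 0.000808) and Limk1 (−0.31, 0.0258), the latter lost without any 1 of Control 2, Control 3, Tra_TGF 1, Tra_TGF 2 or Tra_TGF 4 (up to 0.0764) and after the GC correction (−0.19, adjusted p = 0.0636).

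Of 53 other guidance cues, receptors and co-receptors, 48 were tested, and 5 were higher and 4 lower in Trauma than in Control, where 5.82% of all genes tested were called. Flrt1, an adhesion protein, rose from 2.46 ± 0.184 to 3.31 ± 0.373 FPKM (SD, n = 4; log2 fold change 0.41, limma adjusted p = 0.0225), except without any 1 of Control 3, Control 4 or Trauma 1, 2 or 3 (up to 0.0696), with quantile normalization or in a fit of the 2 groups alone, and the Hedgehog transducer Smo from 2.37 ± 0.134 to 3.08 ± 0.239 (0.36, adjusted p = 0.0140), except in a fit of the 2 groups alone. Cntnap2 fell from 10.5 ± 0.362 to 8.60 ± 0.516 (−0.28, adjusted p = 0.00701), and the contactin Cntn4 from 1.48 ± 0.181 to 0.972 ± 0.0872 (−0.55, adjusted p = 0.0336). The Cntn4 call was lost without any 1 of Control 1, 3 or 4 or Trauma 1, 2 or 4 (up to 0.0956), with no filter and in a fit of the 2 groups alone. In Tra_TGF against Trauma 5 were higher and 2 lower, where 12.3% of all genes tested were called. Omg, a myelin inhibitor of axon growth, rose from 20.4 ± 2.79 to 27.9 ± 3.07 (0.45, adjusted p = 0.0344), lost without any 1 of Trauma 1, 2 or 4 or Tra_TGF 2, 3 or 4 (up to 0.0971) and after the GC correction (0.33, adjusted p = 0.0890), and passed in 16 of 28 alternatives. The receptor phosphatase Ptprd rose from 14.97 ± 0.561 to 17.9 ± 0.381 (0.26, adjusted p = 0.0128), a call lost with the correction for gene length. Gas1, a Hedgehog co-receptor, fell from 6.92 ± 0.568 to 5.12 ± 0.232 (−0.43, adjusted p = 0.00839) in all 28 alternatives, and Lingo1, a co-receptor for myelin inhibitors, from 71.0 ± 3.61 to 60.0 ± 3.48 (−0.24, adjusted p = 0.0168), except without Trauma 2 or Tra_TGF 2 (up to 0.0541) and after the GC correction (−0.09, adjusted p = 0.296). Against Control, 6 were higher and 2 lower in Tra_TGF, where 16.3% of all genes tested were called. Over the effectors and these genes together, quantile normalization turned 11 higher and 8 lower into 27 and 4 for Tra_TGF against Trauma, and 15 and 13 into 22 and 7 for Tra_TGF against Control, where it called 13.7% of all genes in each. Named against Control were Boc (0.39, limma adjusted p = 0.0386, lost without any 1 of 9 libraries, up to 0.0983, and passing in 14 of 28 alternatives), Flrt1 (0.38, 0.0162, lost without Control 3 at 0.0513), Rgma (−0.25, 0.00244, but −0.05 with adjusted p = 0.53 after the GC correction) and Lingo1 (−0.19, 0.0305, lost without any 1 of Control 2, 3 or 4 or Tra_TGF 2, 3 or 4, up to 0.089, and after the GC correction at −0.06 with adjusted p = 0.488).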

How the data were processed

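RNA of 12 libraries (4 each of Control, Trauma and Tra_TGF) had been sequenced as paired-end reads. The study's methods speak of fewer sequenced samples than these 12 libraries, and how the samples relate to the libraries is not stated. The authors deposited a table of FPKM with gene lengths, made with HISAT2 2.0.5 on mm10, StringTie and featureCounts per the study's methods, and strand is not stated in the sources used here. The libraries held 15052486 to 17381671 reads on genes. FPKM times gene length gave whole multiples of 1 read's value for 100% of values (tolerance 0.01 reads), so reads on genes could be recovered, and the deposited FPKM were found to be scaled between libraries already by median of ratios (the factors over the 17640 genes above 0 in all libraries were equal).

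Median-of-ratios factors over the genes tested (0.999 to 1.01) were applied to the FPKM, and log2(FPKM + 0.1) was fitted with limma 3.58.1 (R 4.3.3) in 1 model of the 12 libraries by group, with eBayes trend, and Benjamini-Hochberg adjustment over the 15016 genes with a mean of at least 0.5 FPKM. A call is an adjusted p of at most 0.05. Fold changes on this scale understate the change of low genes. The GC content of transcripts (GENCODE M21, whose coordinates match the table) was known for 97.9% of the genes tested. Promoters came from RefSeq. Other steps used Python 3.11.15 with numpy 2.4.6, pandas 2.3.3 and, for the plots, matplotlib 3.10.9. The fit was tested on simulated counts with known changes. These held no dependence on GC content or length, so that test cannot speak to such a dependence here.

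The members and gene lists were chosen with earlier results of these data known. Named genes are the members called in a comparison (at most 25), the highest member of each role and, of each of the 2 other lists, the 2 called genes with the largest change in each direction. Others are named where the text says so or where a count or neighbour turns on them. Alternatives were other pseudocounts (1, 0.01), filters (none, 1 FPKM), scalings (as deposited, quantile), fits (2 groups, no trend, robust, replicate block, protein-coding genes alone), corrections for gene length or GC content (loess, span 0.3), voom with the reads recovered, leaving out each library, an unadjusted p, and a minimum absolute log2 fold change (0.5). Each named gene had 28 alternatives, 12 of them leaving out 1 library. The unadjusted p and the minimum fold change were applied to counts of genes.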

Additional observations from a re-analysis of the deposited data

Results flagged for a closer look

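In the 87 groups of 4 values tested (29 named members in 3 groups), 2 libraries lay far from the other 3 of their group by Dixon's criterion, which chance alone does in about 1 group in 20. Epha8 had 3.01 FPKM in Tra_TGF 4, against 2.57 to 2.64 in the other Tra_TGF libraries. Without Tra_TGF 4, Epha8 in Tra_TGF minus Trauma had a log2 fold change of −0.34. Sema6a had 10.0 FPKM in Control 4, against 8.15 to 8.42 in the other Control libraries, and without Control 4 its log2 fold change in Tra_TGF minus Control was 0.32.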

How the results depend on the processing

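The number of members called for Trauma against Control (4) became 1 with no filter, 7 with the GC correction, 8 with the GC correction and the replicate block, 7 with protein-coding genes alone, 10 with voom, 19 at an unadjusted p and 1 with a minimum absolute log2 fold change (0.5), and ran from 1 to 5 with 1 library left out. For Tra_TGF against Trauma (7) it became 2 with no filter, 4 with the gene length correction, 3 with that and the replicate block, 3 with the GC correction, 11 with voom, 25 at an unadjusted p and 2 with the minimum fold change, and ran from 2 to 12. For Tra_TGF against Control (17) it became 11 in a fit of the 2 groups, 28 at an unadjusted p and 3 with the minimum fold change, and ran from 10 to 20. Of the other guidance genes, 16 called for Trauma against Control became 10 with no filter, 8 in a fit of the 2 groups, 25 with the GC correction and block, 25 with voom, 44 at an unadjusted p and 3 with the minimum fold change (9 to 16 with 1 library left out). The 19 for Tra_TGF against Trauma became 10 with no filter, 31 with quantile normalization, 11 with no trend, 8 with the length correction and block, 12 with the GC correction with or without the block, 34 with voom, 43 at an unadjusted p and 1 with the minimum fold change (6 to 33), and the 28 for Tra_TGF against Control became 16 in a fit of the 2 groups, 52 and 2 (17 to 40). The cause of these moves was not tested. Among single members' called values, 21 of 48 for Trauma against Control, 55 of 84 for Tra_TGF against Trauma and 169 of 204 for Tra_TGF against Control kept their call with 1 library left out. Under the other alternatives 47 of 64, 84 of 112 and 239 of 272 did, and 0 changed sign.

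Replicate numbers are shared by the groups, but nothing in the labels ties same-numbered libraries. Their deviations from the group means correlated at −0.0088 to 0.076 (−0.091 to 0.073 for different numbers). Whether same-numbered libraries came from a shared culture cannot be told from the labels or from these correlations, which run over all genes tested. The main fit used no block. With the replicate block, 5, 8 and 20 members were called for Trauma against Control, Tra_TGF against Trauma and Tra_TGF against Control, and 16, 19 and 28 other guidance genes.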
